A study of Homo sapiens with 2 samples.

Results

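The genes described here are ALKBH5, METTL3, IGF2BP3, HNRNPA2B1 and HNRNPC, which write, erase or read N6-methyladenosine (m6A), a methyl mark on adenosines of RNA. They were taken by gene name among names with a number in the tables, with earlier results of these data known, and are 5 of the 9253 names that carried a value in the deposited tables. RNA came from 95D, a human lung cancer cell line of wild-type genotype, in 1 library of cells kept for 48 h in glutamine-free medium and 1 of cells kept for 48 h in glucose-free medium, called here the glutamine-free and the glucose-free library. Both cultures had first spent 24 h in complete medium, and both deprivation media held dialysed serum. The series' title and design text describe RNA pulled down with an antibody to ALKBH5 and compared with input, but neither sample is labelled as a pull-down or an input, so binding to ALKBH5 was not analysed here. The descriptions of both samples name the same column of the series table. Whether a library holds total cellular RNA, as its labels say, or RNA pulled down with ALKBH5 cannot be told apart here, and every value below is subject to that. With 1 library per condition, differences rest on no replicates and were not put to a test.

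The mark is placed by a nuclear methyltransferase complex whose catalytic subunit is METTL3, working with METTL14 and adaptor proteins such as WTAP and VIRMA. It is removed by the dioxygenases ALKBH5 and FTO, which need iron and 2-oxoglutarate. Readers then act on the marked RNA: YTH-domain proteins bind the methylated base, IGF2BP proteins bind through KH domains and stabilise transcripts, and the nuclear proteins HNRNPA2B1 and HNRNPC take part in splicing and processing. HNRNPC is known to reach sites that open when methylation loosens RNA structure.

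All 5 genes were above 0 in the glutamine-free library, as were 99.5% of all names. In the glucose-free library all of their rows with a value were listed at 0, where 2.54% of all rows with a value were above 0. Of 26 transcript rows carrying these names, 17 had a value in both libraries (65.4%), and 20.3% of all rows in the tables did. Since each gene was taken for having a value, nothing is read from that difference. Rows without a value were not used. The authors' values behave as whole reads times 1 factor per library, called scaled reads here. They were summed over the rows of a name and not divided by transcript length, so they are not compared as levels between genes. The column of names is headed as one of long non-coding RNAs, and the rows hold no transcript identifiers, so whether they hold reads of the protein-coding messenger RNA cannot be told. No row of these genes can be placed on an exon or an untranslated region for the same reason.

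All 5 names were above 0 in the glutamine-free and at 0 in the glucose-free library. Of all names, 99.5% were above 0 in the glutamine-free library and 4.25% in the glucose-free library. The pattern therefore does not set the 5 genes apart, and no shared promoter feature is inferred from it. The stretches of 250 bases before the annotated start of each gene are printed as description, since the files hold no sequence of their own. They come from RefSeq, build GRCh38.p14, and all 5 genes matched by symbol. They run 5′ to 3′ towards the gene, and capitals mark the letters of the motifs named after them.
ALKBH5, chr17:18183578-18183827, plus strand: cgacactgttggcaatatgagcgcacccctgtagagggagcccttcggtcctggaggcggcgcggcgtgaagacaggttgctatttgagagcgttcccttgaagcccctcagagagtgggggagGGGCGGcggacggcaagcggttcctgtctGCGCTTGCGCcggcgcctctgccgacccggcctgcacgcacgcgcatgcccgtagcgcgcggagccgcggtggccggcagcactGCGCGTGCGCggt
METTL3, chr14:21511341-21511590, minus strand: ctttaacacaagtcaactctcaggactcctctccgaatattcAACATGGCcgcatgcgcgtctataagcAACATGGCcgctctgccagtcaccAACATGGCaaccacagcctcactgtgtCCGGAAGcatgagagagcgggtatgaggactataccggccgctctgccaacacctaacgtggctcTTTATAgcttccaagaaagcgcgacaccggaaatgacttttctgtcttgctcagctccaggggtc
IGF2BP3, chr7:23470492-23470741, minus strand: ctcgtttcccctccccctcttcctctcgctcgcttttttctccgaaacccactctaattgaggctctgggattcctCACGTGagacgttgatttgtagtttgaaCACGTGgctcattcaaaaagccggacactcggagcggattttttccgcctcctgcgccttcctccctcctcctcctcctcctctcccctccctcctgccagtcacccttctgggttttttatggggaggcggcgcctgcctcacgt
HNRNPA2B1, chr7:26200747-26200996, minus strand: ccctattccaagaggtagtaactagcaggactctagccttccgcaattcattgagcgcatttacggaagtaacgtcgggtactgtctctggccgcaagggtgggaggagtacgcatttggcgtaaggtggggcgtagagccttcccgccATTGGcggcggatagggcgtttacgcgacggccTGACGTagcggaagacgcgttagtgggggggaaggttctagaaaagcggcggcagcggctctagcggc
HNRNPC, chr14:21269443-21269692, minus strand: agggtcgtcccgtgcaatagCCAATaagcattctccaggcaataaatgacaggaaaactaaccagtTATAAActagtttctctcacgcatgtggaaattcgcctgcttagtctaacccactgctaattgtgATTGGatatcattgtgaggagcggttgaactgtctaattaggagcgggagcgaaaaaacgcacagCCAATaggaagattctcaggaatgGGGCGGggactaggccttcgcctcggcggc

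Of 9 motifs searched on both strands, none was shared by all 5 stretches. The stretch of METTL3 held AANATGGC, the core recognised by the factor YY1, at 3 places, from 208 to 201, 181 to 174 and 157 to 150 bases before the start. Of 35116 promoters of the same length, 3.86% held that motif. It also held CCGGAAG, an ETS-type site found in 8.52% of promoters. Of all promoters, 10.7% held TATAAA, the letters of the TATA box, on either strand. In the stretch of METTL3 they lay on the opposite strand, printed as TTTATA, 65 to 60 bases before the start. That of IGF2BP3 held 2 copies of the E-box CACGTG (6.34% of promoters), and that of ALKBH5 held 2 copies of the site of NRF1 (5.07%), beside a GC box, GGGCGG (42.6%). HNRNPC had 3 copies of the CCAAT box (32.0%), 1 GC box and, 184 to 179 bases before the start, the letters TATAAA. HNRNPA2B1 had 1 CCAAT box and the cyclic AMP response element core TGACGT (7.10%). TGATGNAA, the composite site used by the amino acid response factor ATF4, was in 3.14% of promoters and in none of these 5 windows. No match overlapped another, and a match is a stretch of letters and not a measured binding site. G and C made up 70.0% of the stretch of ALKBH5, 59.2% of HNRNPA2B1, 56.8% of IGF2BP3, 53.2% of METTL3 and 48.4% of HNRNPC, against a median of 58.0% over all promoters.

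ALKBH5, the demethylase after which the series is titled, had 1 transcript row, at 11.8 in the glutamine-free library and listed at 0 in the glucose-free library. That value corresponds to 15 reads (95% Poisson interval 8.40 to 24.7). It lay above 33.0% of all names in the glutamine-free library, below the median name at 20.5. ALKBH5 was thus the lowest of the 5 genes in scaled reads, and its Poisson interval did not reach that of any other.

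METTL3, the catalytic methyltransferase, had 4 rows with a value among the 5 that carry its name. In the glutamine-free library they stood at 76.7, 11.1, 7.89 and 5.52, and in the glucose-free library all 4 were listed at 0. The sum in the glutamine-free library was 101 from 128 reads (107 to 152), above 84.3% of names. A single row thus carried 75.8% of the reads of METTL3 (95% Wilson interval 67.7 to 82.4%).

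IGF2BP3, an oncofetal reader that is silent in most adult tissues and expressed in many tumours, had the highest value of the 5. Its 3 rows with a value stood at 366, 7.10 and 3.15 in the glutamine-free library and were listed at 0 in the glucose-free library. They summed to 376 from 476 reads (434 to 521), above 97.3% of names. Of those reads, 463 lay in the largest row, or 97.3% (95.4 to 98.4%). The other 3 rows of that name had no value.

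HNRNPA2B1, a nuclear reader and splicing factor, had 4 of 7 rows with a value, at 274, 31.6, 26.9 and 15.8 in the glutamine-free library and listed at 0 in the glucose-free library. Its sum was 349 from 441 reads (401 to 484), above 97.0% of names. HNRNPC, which packages nascent RNA and was the other hnRNP among the 5, had 5 of 7 rows with a value. They stood at 82.3, 19.8, 9.47, 9.47 and 3.15 in the glutamine-free library and were listed at 0 in the glucose-free library. HNRNPC summed to 124 from 157 reads (133 to 184), above 87.4% of names. In order of scaled reads, the Poisson intervals of IGF2BP3 and HNRNPA2B1 overlapped, as did those of HNRNPC and METTL3, and the first pair lay above the second.

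**Figure D1:**
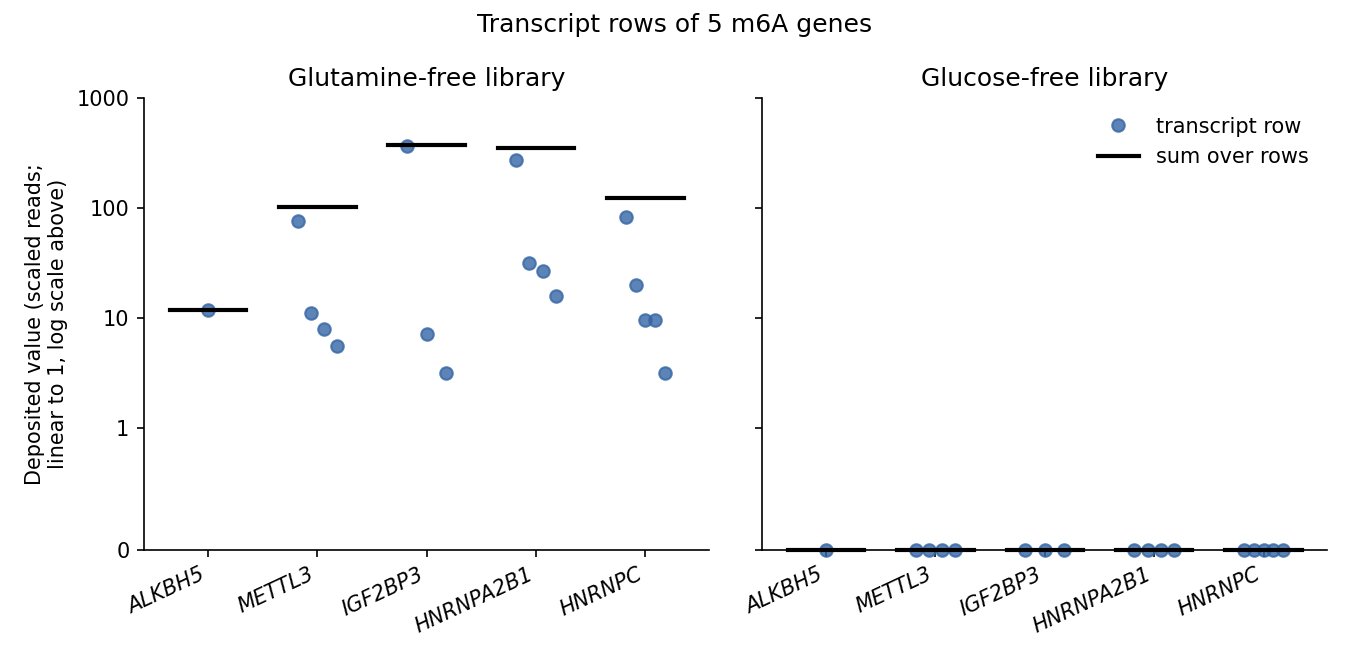
Deposited value of each transcript row with a value (points) and the sum over rows (bars) for the 5 genes, in scaled reads, glutamine-free library on the left and glucose-free library on the right. The axis is linear up to 1 and logarithmic above. All 17 rows lie between 3.15 and 366 in the glutamine-free library and at 0 in the glucose-free library.

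**Figure D2:**
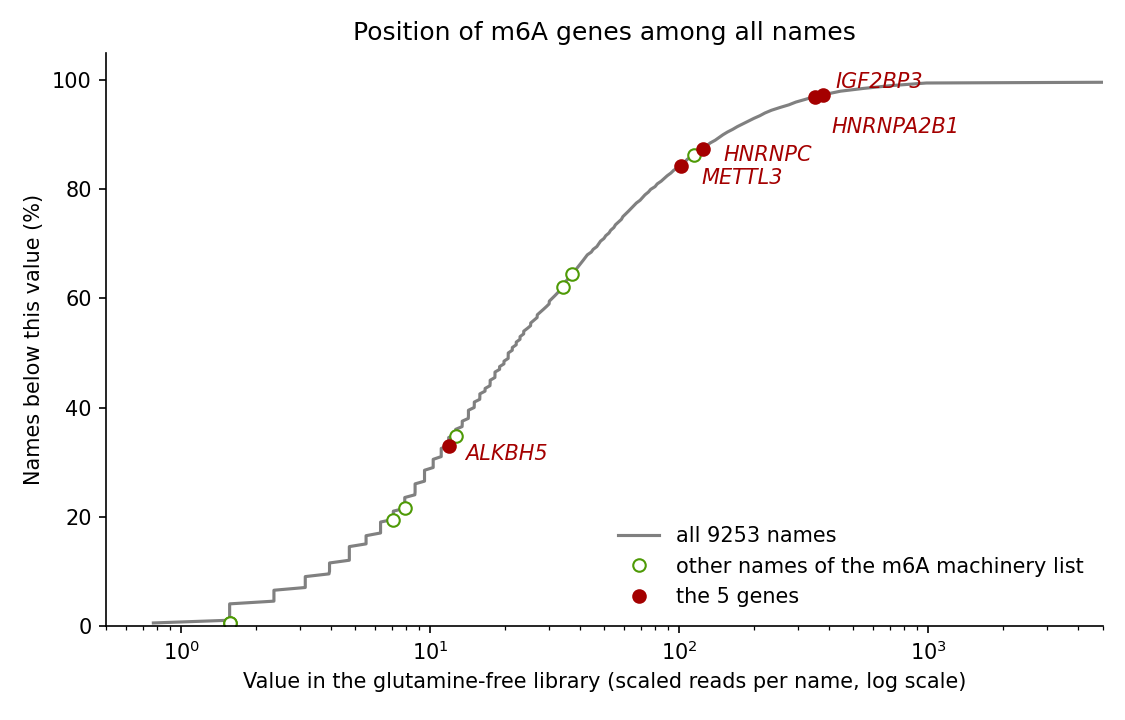
Share of the 9253 names below a given value in the glutamine-free library (line; log scale in scaled reads), with the 5 genes (filled) and the other 8 measured names of the m6A machinery list (open). ALKBH5 lies below the median name, and the other 4 genes lie above 84.3% of names or more.

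The 5 genes held 1217 of the 1442559 reads behind the listed values of the glutamine-free library, or 0.0844% (95% Wilson interval 0.0798 to 0.0892%). A single unnamed locus, XLOC_220679, took 38.8% of those reads, and without it the share of the 5 genes was 0.138%; of the reads of protein-coding symbols alone it was 0.205%. Behind the listed values of the glucose-free library were 42827 reads, of which the 5 genes held 0. The first of these shares would have been 36.1 of them. The same arithmetic gave 14.1 reads for IGF2BP3, 13.1 for HNRNPA2B1, 4.66 for HNRNPC, 3.80 for METTL3 and 0.445 for ALKBH5. These figures scale with the denominator, the reads of rows with a value, which need not be the sequencing depth. Those reads differed 33.7-fold between the libraries, while the scaling factors of the libraries differed 1.60-fold. Which of these follows sequencing depth was not tested. The figures do not give the chance of seeing a gene. The 18564 rows above 0 in the glutamine-free library had a median of 17 reads. The 474 rows above 0 in the glucose-free library had a median of 70. What lies behind that difference was not tested. The zeros of the 5 genes stood beside those of reference genes: ACTB at 798 and GAPDH at 810.0 in the glutamine-free library were listed at 0 in the glucose-free library too, where 30.0 and 30.4 reads would have matched their shares. No upper limit is set on the zeros for that reason, and no fold change of a gene or list is printed against them. In a bulk library, fewer cells with a transcript and less of it per cell cannot be told apart.

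All 5 genes counted as at least 2-fold higher in the glutamine-free library on the log2(value + 1) scale, as did 97.4% of all names. At least 2-fold higher in the glucose-free library were 0 of the 5 and 1.42% of all names. The count of 5 is therefore close to the background. With every gene at 0 in the glucose-free library, the difference on that scale restates the value in the glutamine-free library. Centring the log2 differences on the median of all names, which turned the split over all names from 9008 against 131 into 2911 against 2696, left 4 of the 5 past the mark and not ALKBH5, which follows from its value lying below the median name.

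None of the 5 was above 0 in the glucose-free library, and 4.25% of all names were. From a value of 5 upward in the glutamine-free library that share climbed with the value, and it was 1.68% below 5 and 0.773% from 5 to 10, so each gene is set beside names of its own band. Among names of 200 to 500, where IGF2BP3 and HNRNPA2B1 lay, 71 of 484 were above 0 in the glucose-free library (14.7%). Among names of 100 to 200, where METTL3 and HNRNPC lay, 62 of 822 were (7.54%). Among names of 10 to 20, the band of ALKBH5, 25 of 1875 were (1.33%). A listed 0 was therefore the common state in the bands of all 5 genes. Where a name was above 0 in the glucose-free library and had 2 or more rows with a value, 1 row alone was above 0 in 230 of 279 names (82.4%).

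**Figure D3:**
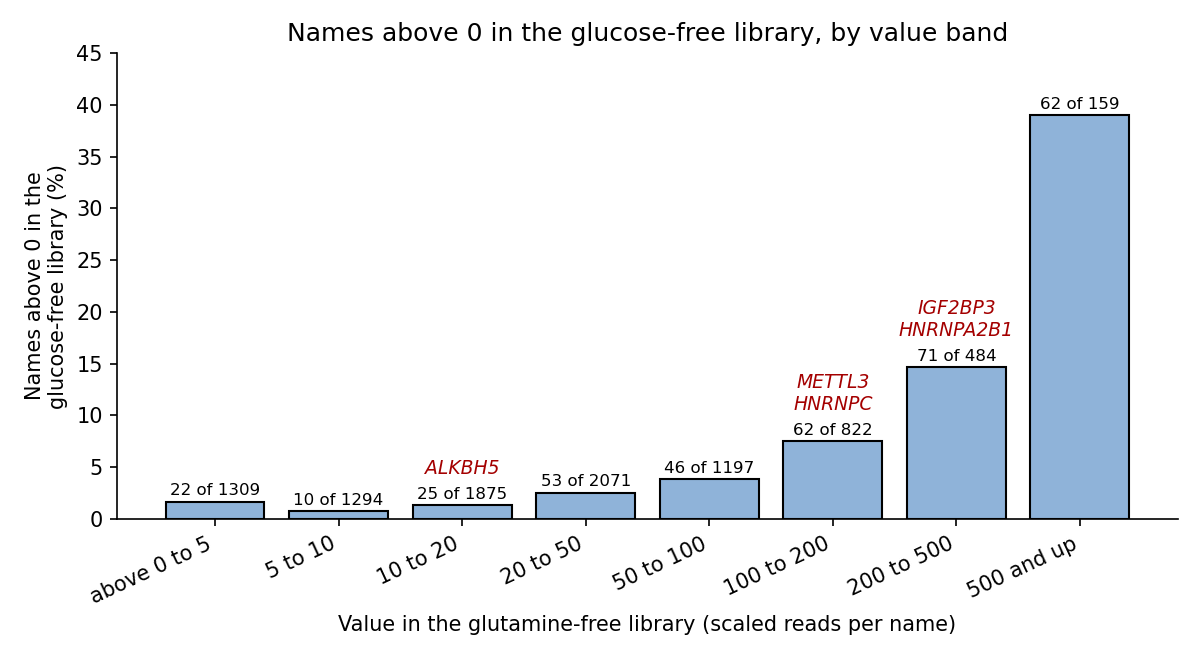
Share of names above 0 in the glucose-free library (bars, in %, with counts above them) by band of the value in the glutamine-free library, in scaled reads, with the 5 genes written over their bands. The share is 1.33% in the band of ALKBH5, 7.54% in that of METTL3 and HNRNPC and 14.7% in that of IGF2BP3 and HNRNPA2B1.

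The 4 genes with several rows had most of their reads in 1 row. In the glutamine-free library the largest row held 97.3% for IGF2BP3, while over the 836 names with 3 rows the median was 62.1% (quartiles 51.7 and 73.9%). It held 78.7% (74.6 to 82.3%) for HNRNPA2B1 and 75.8% for METTL3, while the 500 names with 4 rows had a median of 52.8% (45.3 and 65.9%). It held 66.2% (58.5 to 73.2%) for HNRNPC, while the 290 names with 5 rows had a median of 47.9% (39.1 and 58.3%). All 4 lay above the upper quartile of names with as many rows. Among such names with a value of 100 or more the medians were 67.8% for 3 rows, 57.3% for 4 and 49.0% for 5. The share in the largest row still exceeded that of 99.2% of those names for IGF2BP3, 84.2% for HNRNPA2B1, 81.2% for METTL3 and 80.2% for HNRNPC. Transcript lengths are unknown here, and a longer transcript draws more reads. How reads shared by overlapping transcripts were assigned is not given in the sources used here.

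**Figure D4:**
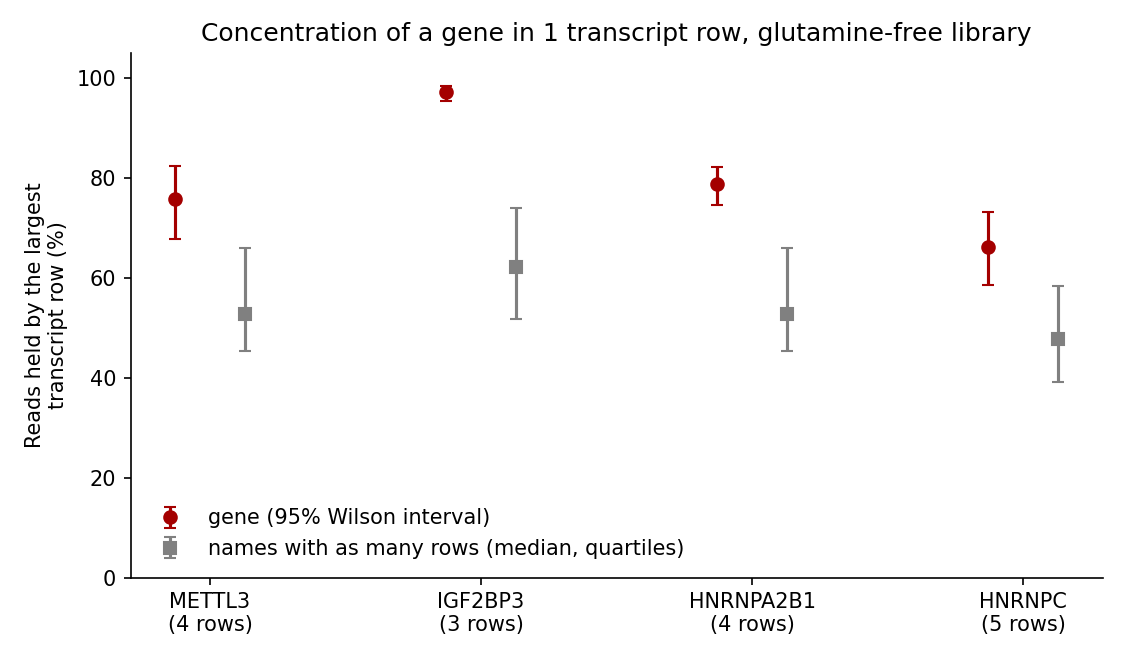
Share of a gene's reads in its largest transcript row in the glutamine-free library (round points, in %, with 95% Wilson intervals) for the 4 genes with several rows, beside the median and quartiles of all names with as many rows (squares). The 4 genes lie at 97.3, 78.7, 75.8 and 66.2%, each above the upper quartile beside it.

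The wider m6A machinery list held 28 entries, of which 13 had a value, 8 had rows without one and 7 were not analysed here. All 13, the 5 genes included, passed the 2-fold mark towards the glutamine-free library (97.4% of all names). They were listed at 0 in the glucose-free library, where 4.25% of all names were above 0. Their median value in the glutamine-free library was 34.0 (95% order-statistic interval 7.10 to 124), beside 20.5 over all names and 31.6 over protein-coding symbols. Without the 5 genes the median of the other 8 was 10.3, and the 5 highest names of the list were IGF2BP3, HNRNPA2B1, HNRNPC, FMR1 and METTL3, a choice made with these values known.

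Among the writers, METTL3 was followed by VIRMA, the scaffold of the methyltransferase complex, at 34.0 and CBLL1, an adaptor with a RING domain, at 12.6 in the glutamine-free library. WTAP, which anchors the complex in nuclear speckles, stood at 7.89 from 10 reads. METTL5, which methylates ribosomal RNA, stood at 7.10 from 9 reads, and METTL16, which methylates the MAT2A messenger RNA and a spliceosomal RNA, at 1.56 from 2 reads. METTL14, the partner of METTL3, had 1 row and no value, as did ZC3H13 and ZCCHC4. ALKBH5 was the 1 measured eraser.

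Among the readers, FMR1, which binds polyribosomal RNA and is lost in fragile X syndrome, stood at 115 from 145 reads in the glutamine-free library, next below HNRNPC. YTHDC2, a helicase of the YTH family, stood at 37.2 from 47 reads and was the 1 YTH-domain protein with a value. RBMX, a nuclear reader related to HNRNPC in its use of opened sites, stood at 1.56 from 2 reads. YTHDF3, YTHDC1, IGF2BP1, ELAVL1 and PRRC2A had rows but no value. The measured names among these were listed at 0 in the glucose-free library.

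**Figure D5:**
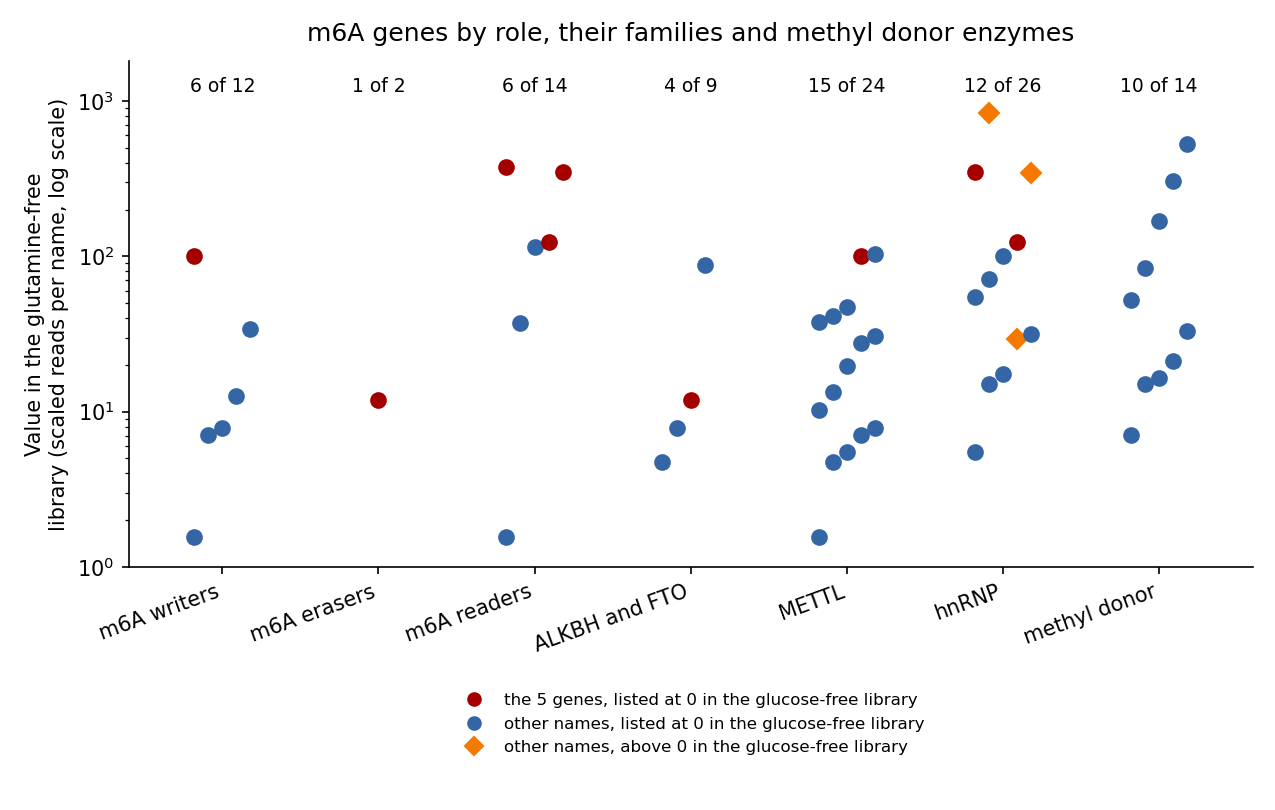
Value in the glutamine-free library (log scale, scaled reads per name) for each measured name of the m6A list by role, of the ALKBH, METTL and hnRNP families and of the methyl donor list; the numbers give measured names of entries. The 3 diamonds mark HNRNPU, HNRNPH1 and HNRNPA3, which were above 0 in the glucose-free library, while all round points were listed at 0 there.

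Within their own families the genes took different places. Of 9 dioxygenases of the ALKBH family and FTO, 4 had a value in the glutamine-free library: ALKBH6 at 88.5, ALKBH5 at 11.8, ALKBH2, a DNA repair enzyme, at 7.89 and ALKBH4 at 4.73. METTL3 at 101 from 128 reads stood beside METTL17, a mitochondrial ribosome assembly factor, at 103 from 130 reads, as the upper end of 15 measured METTL names with a median of 19.7. Next came METTL2A at 47.4 and METTL15, a methyltransferase of mitochondrial ribosomal RNA, at 41.1, and METTL16, METTL2B at 4.73, METTL23 at 5.52 and METTL5 were lowest. IGF2BP3 was the 1 IGF2BP name with a value. All measured ALKBH, METTL and IGF2BP names were listed at 0 in the glucose-free library, where 4.25% of all names were above 0.

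Of the 12 measured names of the hnRNP family, to which HNRNPA2B1 and HNRNPC belong, 3 were above 0 in the glucose-free library. Of all names, 4.25% were. In the bands of value of the 3, that was so for 39.0% of names (500 and up, HNRNPU), 14.7% (200 to 500, HNRNPH1) and 2.56% (20 to 50, HNRNPA3). Of the others, HNRNPA2B1 lay in the band of HNRNPH1 and HNRNPC in that of 100 to 200 (7.54%). HNRNPAB and HNRNPM lay in that of 10 to 20 (1.33%) and HNRNPUL1 in that of 5 to 10 (0.773%). The family spread over bands with unlike shares, so nothing is read from the 3 of 12. HNRNPU, a nuclear scaffold protein, stood at 833 in the glutamine-free and 154 in the glucose-free library. HNRNPH1, a splicing regulator that binds runs of G, stood at 346 in the glutamine-free and 159 in the glucose-free library. HNRNPA3, a close relative of HNRNPA2B1, stood at 29.2 in the glutamine-free and 140 in the glucose-free library. In each of these 3 names 1 row held the whole value of the glucose-free library, among 7 rows for HNRNPU, 10 for HNRNPH1 and 2 for HNRNPA3. In the glutamine-free library that same row stood at 172 for HNRNPU, 83.0 for HNRNPH1 and 27.7 for HNRNPA3. For HNRNPH1 and HNRNPA3 it was thus lower there than in the glucose-free library. The rest of each sum came from rows listed at 0 in the glucose-free library. HNRNPA2B1, with a value of 349 next to the 346 of HNRNPH1 in the glutamine-free library, was listed at 0 in the other, and so was HNRNPC. The difference between these names was not tested. HNRNPUL1 at 5.52, HNRNPAB at 15.0 and HNRNPM at 17.4 in the glutamine-free library were the lowest of the family beside HNRNPA3 and were listed at 0 in the glucose-free library. Reads of the many pseudogenes and close copies of hnRNP genes may be split among them in the authors' counting.

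Methyl groups for m6A come from S-adenosylmethionine, and 10 of 14 enzymes that make it, recycle its product or feed it with methyl groups had a value. All 10 passed the 2-fold mark towards the glutamine-free library (97.4% of all names). They were listed at 0 in the glucose-free library, where 4.25% of all names were above 0. MAT2A, which makes S-adenosylmethionine, stood at 306 in the glutamine-free library over 3 rows, the largest at 143, and its regulatory subunit MAT2B at 16.5. MTHFD2, a mitochondrial folate enzyme, was highest at 526, and SHMT2 stood at 168. MTR, methionine synthase, stood at 84.6 and AHCY, which clears S-adenosylhomocysteine, at 33.2. The median of the list was 42.7 (15.0 to 306), beside 20.5 over all names and 31.6 over protein-coding symbols.

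The names nearest in value to each gene, among symbols that were likewise listed at 0 in the glucose-free library, describe how many reads each rests on over 2 libraries. IGF2BP3 lay between ANKZF1 at 477 reads and XRCC5 at 474 in the glutamine-free library. HNRNPA2B1 lay between PMM2 at 442 reads and GCN1 at 441, and HNRNPC between CAMTA2 and MED12 at 157 each. METTL3 lay between SBNO2 and RNASEH2C, both at 128 reads. ALKBH5 shared its value with 79 other symbols, since at 15 reads many names coincide.

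The cell line's label as lung cancer was set against markers. Of 9 lung epithelial markers 5 had a value. In the glutamine-free library KRT8 stood at 143, KRT18 at 75.1, KRT19 at 42.6, NAPSA at 18.9 and KRT7 at 9.47, summing to 289. In the glucose-free library the sum was 360, held by KRT8 at 200 and NAPSA at 161, with KRT18, KRT19 and KRT7 listed at 0. EPCAM, CDH1 and SFTPB had rows without a value. Of 4 mesenchymal markers, FN1, TGFBI and VIM summed to 1371 in the glutamine-free and 482 in the glucose-free library. FN1 stood at 963 in the glutamine-free and 344 in the glucose-free library, and TGFBI at 331 and 138. VIM stood at 75.9 in the glutamine-free library and was listed at 0 in the glucose-free library. The other, CDH2, had rows without a value. No blood, endothelial or fibroblast marker had a value. As 20.3% of all rows had a value, lack of one does not show that a transcript was absent.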

How the data were processed

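Per the submitters' processing notes, HISAT2 2.0.5 and StringTie were used with build hg38; no source used here gives their roles, the counting, annotation, strandedness or scaling. Per the labels' protocols, total RNA was depleted of ribosomal RNA and sequenced as read pairs. The deposited values carry no unit in the file headers. They were not whole numbers, but rose in equal steps of 0.791 in the glutamine-free and 1.26 in the glucose-free library. With a fitted offset removed, division by the step returned whole reads within 0.1 for 100% of 18536 and 472 values up to 1000 reads. Reads behind the listed values were 1442559 in the glutamine-free and 42827 in the glucose-free library. Rows without a value, all but 20.3%, are not in them, so sequencing depth is not known. The product of the 2 steps was 1.00 and their ratio 1.60, glucose-free over glutamine-free. The design named counts or normalised values, and its description without a test was used. Values under 1e-09 were set to 0, rows were summed by name, and names reaching 1 in a library were kept. Differences are log2(value + 1), glutamine-free minus glucose-free. Intervals are 95% Wilson, exact Poisson or order-statistic intervals and cover counting error alone, as reads lacking molecular identifiers may be copies of 1 molecule.

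The genes, lists, motifs and alternatives were chosen with earlier results of these data known. Named were the 5 genes, measured members of the m6A list, the ends of each gene family, examples of the methyl donor list, the nearest neighbours in value, ACTB and GAPDH and the markers. Rows under older symbols of the 5 genes numbered 0. Alternatives were rescaling to 1000000, centring, a pseudocount of 0.1, a 4-fold threshold, a minimum of 5 or none, transcript rows, and protein-coding symbols. The recovery of whole reads and a 2-fold call on row reads were tested on simulated libraries of like depth without missing rows. That setting is unlike the 2 libraries here, so it does not test the counts of names given above. Python 3.11.15, pandas 2.3.3 and scipy 1.17.1 were used. The whole-series table repeats the same values and was not used.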

Additional observations from a re-analysis of the deposited data

How the results depend on the processing

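Under each alternative run on the sums per name, the 5 genes stayed at 5 at least 2-fold higher in the glutamine-free library, except 4 with centring, where the call only places a value against the median name. Centring left 5 of the 13 m6A list names, and 2911 of all names higher in the glutamine-free and 2696 in the glucose-free library, against 9008 and 131. The shift removed was 4.32 on the log2 scale. Of the 13 m6A list names, 11 remained with a 4-fold threshold and 11 with a minimum of 5. Rescaling each library to 1000000 moved the median difference of all names to 4.14 and the names higher in the glucose-free library to 347, and a 4-fold threshold left 85. By transcript rows the counts were 17 for the 5 genes, 28 for the list, and 18302 and 249 over all rows; with protein-coding symbols only they were 5470 and 75, since fewer names were counted. The share of reads held by the 5 genes was 0.138% without the most abundant name, 0.0711% from the largest rows alone and, in an alternative added after seeing the data, 0.205% of reads of protein-coding symbols. The median of the list stayed between 22.9 and 37.2. Every row of the 5 genes with a value was also at 0 in the glucose-free library, so no setting gives them a measured fold. ALKBH5 rests on the fewest reads, 15. No paired analysis was possible because each condition has 1 library.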
